A study of Mus musculus with 36 samples.

Results

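Lipid droplet and fat uptake genes were described by the histone mark H3K9me3 in the livers of mouse offspring, using the rows of the 6 comparison tables whose assigned gene symbol was one of 10: Cd36, Plin2, Plin4, Plin5, Cidea, Cidec, Fitm1, Fitm2, Pnpla2 and Pnpla3. Of these 10 genes, 9 had at least 1 bin, out of 22325 gene symbols with a bin in any table, and Cidea had none. The 9 genes held 113 rows at 62 distinct bins. A bin is a piece of at most 501 bp of a broad H3K9me3 peak, and its gene is the one with the nearest transcription start site, so an intergenic bin is tied to a gene by distance alone.

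The mice came from dams that ate chow (control) or that ate a Western-style diet and were obese (maternal obesity, MO) before mating, during gestation and while nursing. Offspring of both sexes were studied at 3 weeks, before weaning, and at 8 weeks, after all had eaten chow from weaning on. Diet, sex and age together made 8 groups, each with 4 ChIP-seq libraries from separate biological replicates, 32 in all, beside 4 input libraries. The offspring were floxed littermate controls on a C57BL/6J background that carried Reg3g-fl/+ or Reg3g-fl/fl, and which animal had which genotype is not given in the sources used here. The dams and litters behind each group are not given there either. Siblings may thus sit within a group or in groups of both sexes, and the p-values take no account of this. Values per library were not analysed here, so no level per sample can be given, and how far the 4 libraries of a group differed enters only through the p-values of the tables. Liver tissue was used whole, so a change in the mark within a cell and a change in the make-up of the tissue cannot be told apart. The tables hold a chromatin mark and no RNA, and bins lay at 3 to 4 of 6 hepatocyte genes and at 8 to 9 of 9 genes of other liver cells, which does not identify a tissue. The tables had 102145 to 159357 bins.

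Hepatocytes store surplus fatty acids as triglyceride in lipid droplets, which bud from the endoplasmic reticulum, are wrapped in perilipins, grow by fusion and are emptied by lipases. Fatty acids enter the cell in part through CD36, and many genes of this system are switched on by PPAR nuclear receptors when fat supply rises. H3K9me3 marks silent heterochromatin, covers many repeats, and is bound by HP1 proteins; at a promoter it is tied to repression.

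Some stretches of DNA named in the results are shown first, from the RefSeq sequence of GRCm38, 5′ to 3′. The first pair are the middle 300 bases of the bins upstream of Pnpla3 with the smallest p in each sex, on the plus strand. Capitals mark bases outside the soft-masked repeats and lower case marks repeats. The first stretch (chr15:84148931-84149230) is repeat from end to end, and the second (chr15:84161630-84161929) holds none.

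Pnpla3 bin, males: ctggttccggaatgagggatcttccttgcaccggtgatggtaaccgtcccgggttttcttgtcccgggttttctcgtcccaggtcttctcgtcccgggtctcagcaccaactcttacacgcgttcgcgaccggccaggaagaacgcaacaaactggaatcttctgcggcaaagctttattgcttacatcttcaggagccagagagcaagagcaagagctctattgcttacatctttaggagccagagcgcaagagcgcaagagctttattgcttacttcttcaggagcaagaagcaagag

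Pnpla3 bin, females: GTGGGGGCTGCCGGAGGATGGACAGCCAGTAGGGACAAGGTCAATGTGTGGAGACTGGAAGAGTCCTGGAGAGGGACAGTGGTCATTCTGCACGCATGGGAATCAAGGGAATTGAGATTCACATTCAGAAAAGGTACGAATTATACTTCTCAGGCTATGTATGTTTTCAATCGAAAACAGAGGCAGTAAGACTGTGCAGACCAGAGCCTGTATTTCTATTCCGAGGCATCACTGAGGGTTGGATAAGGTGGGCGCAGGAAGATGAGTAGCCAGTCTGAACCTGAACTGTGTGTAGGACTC

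The second pair are promoters that H3K9me3 bins covered, from 250 bases before to 50 bases after the start, in the direction of the gene. Pnpla2 (chr7:141454938-141455237, plus strand) is shown because a bin overlapped its promoter in all 6 tables, and Plin2 (chr4:86670010-86670309, minus strand) because a bin covered its start in females. Capitals mark the letters AGGTCA, read on both strands (TGACCT on the other), the repeated unit of nuclear receptor sites.

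Pnpla2 promoter: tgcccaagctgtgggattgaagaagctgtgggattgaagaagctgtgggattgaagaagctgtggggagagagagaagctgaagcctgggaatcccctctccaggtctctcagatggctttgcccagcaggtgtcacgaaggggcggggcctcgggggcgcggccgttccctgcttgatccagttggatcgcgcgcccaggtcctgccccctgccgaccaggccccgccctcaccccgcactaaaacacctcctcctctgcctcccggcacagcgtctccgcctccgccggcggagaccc

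Plin2 promoter: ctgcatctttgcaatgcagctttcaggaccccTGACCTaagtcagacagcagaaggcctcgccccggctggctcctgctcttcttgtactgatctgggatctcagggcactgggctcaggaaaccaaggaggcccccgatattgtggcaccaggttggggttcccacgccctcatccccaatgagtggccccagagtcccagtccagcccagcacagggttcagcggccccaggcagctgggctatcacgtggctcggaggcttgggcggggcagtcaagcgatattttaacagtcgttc

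Of the 11 promoter entries of 9 members (Cidec and Plin5 have 2 each), AGGTCA occurred in 4, those of Plin2, Cd36 and both of Plin5, against 16.3% of all 32851 promoters of that length, and no test was made. Bins overlapped the promoters of 6 of the 9, and none lay over those of Cd36, Fitm2 or Plin4.

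The first question was how the mark moved between 3 and 8 weeks in control offspring. Changes are log2 ratios of 8 weeks to 3 weeks, so a positive value is more H3K9me3 at 8 weeks, and a call is a false discovery rate (FDR) under 0.05 by edgeR's exact test over all bins. The unadjusted p of that test is written as exact p. The tables give no standard error, and those here (SE) and the 95% intervals were approximated from each change and its p. A single bin was called among the members, upstream of Pnpla3 in males. In males 1 of 23 member bins at 9 genes passed, beside 4.41% of all bins, and 4 had an unadjusted p under 0.05, beside 21.8%. In females 0 of 19 member bins at 8 genes passed, beside 2.72% of all bins, and 3 had an unadjusted p under 0.05, beside 17.5%. These shares are near or below those of all bins. In females the member bins had a median change of -0.20, where the whole table had -0.03. In males these medians were 0.06 and -0.05. Their signal was also ordinary, with a median of 7.03 CPM (counts scaled to library size) beside 6.29 for the whole female table, and 4.77 CPM beside 4.29 for the male table.

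**Figure D1:**
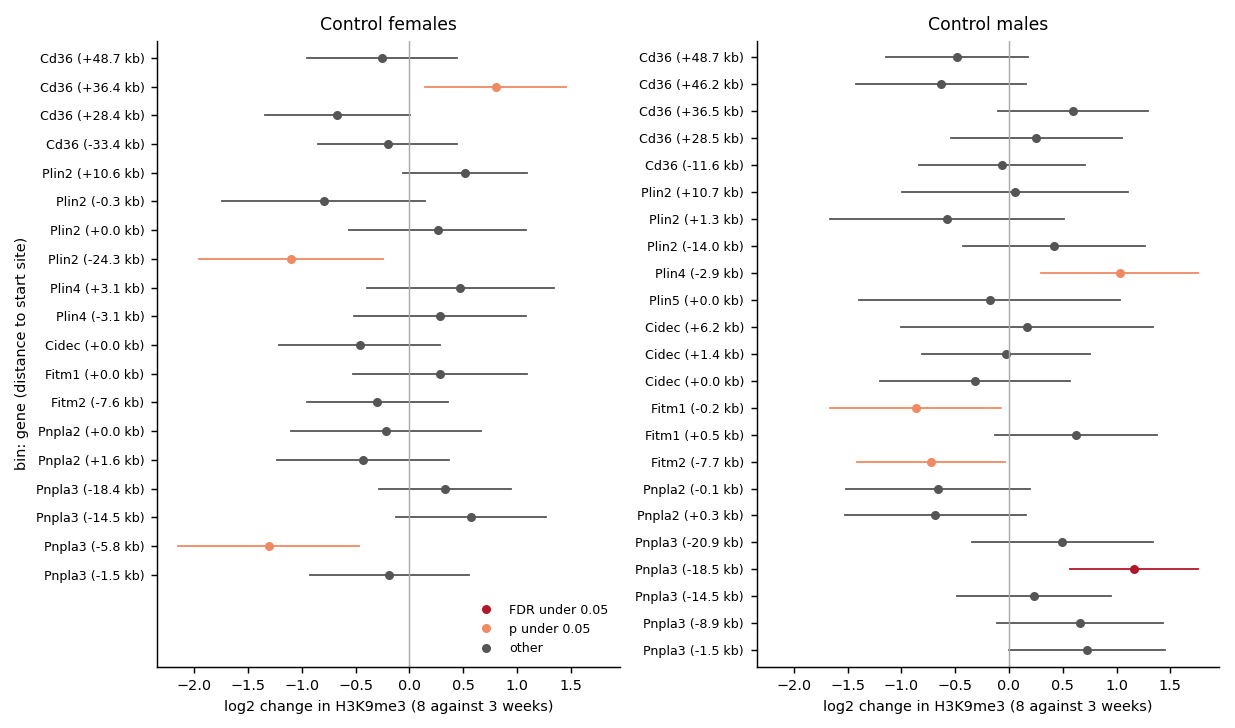
Age change of every member bin in control females and control males. Points are log2 changes of 8 against 3 weeks, bars are approximate 95% intervals, and labels give the gene and the distance of the bin from its start site. The Pnpla3 bin 18.5 kb upstream in males is the sole bin with FDR under 0.05, at a change of 1.16.

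CD36, the membrane receptor for long-chain fatty acids, carried H3K9me3 inside the gene. Of its 27 rows, 22 lay in introns, 5 were intergenic and 0 were at a promoter. In females a bin in intron 8 (chr5:17798862-17799252) was higher at 8 weeks by 0.80 (SE 0.34, exact p = 0.0167, FDR 0.219 by edgeR). The overlapping male bin (chr5:17799003-17799226) had a change of 0.60 (SE 0.36, exact p = 0.0951), the smallest p of Cd36 in males. The next bin towards the start site in that intron, at 28.4 kb in females and 28.5 kb in males from the start of the assigned transcript, which lies inside the gene, had changes of -0.67 in females and 0.26 in males. These bins thus pointed both ways within 1 gene, and none was called.

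Among the perilipins, the coat proteins of the droplet surface, Plin2, the main one of hepatocytes, had 18 rows. Its smallest p in females belonged to a bin 24.3 kb upstream (chr4:86694388-86694689), with a change of -1.10 (SE 0.44, exact p = 0.0119, FDR 0.184). Its bin over the start site in females (chr4:86669863-86670192) had a change of 0.26 (SE 0.42, exact p = 0.529). Its other female bin annotated to a promoter in this comparison, inside the gene (chr4:86659429-86659929), had a change of -0.80 (SE 0.48, exact p = 0.0975). In males the smallest p of Plin2 was 0.300, at a change of -0.58 (SE 0.55) in a bin 139 bp wide inside the gene. Just past its 3′ end, a bin in each sex that was 75.3% to 78.1% repeat was present in all 3 tables of that sex, with age changes of 0.52 (SE 0.29) in females and 0.06 (SE 0.54) in males. Plin2 thus had no call at its start site or elsewhere.

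Plin4, a perilipin with a long run of amphipathic repeats, and Plin5, which binds droplets in cells that burn fat, lie side by side on chromosome 17. A male peak of 6.99 kb reached from Plin4 into Plin5, and a female peak of 6.96 kb lay over Plin5 and gave rows to both, so a row of Plin4 can lie in Plin5. The bin of Plin4 with the smallest p in males (chr17:56112678-56113178) lies within Plin5 and 2.88 kb upstream of Plin4. It was higher at 8 weeks by 1.03 (SE 0.37, exact p = 0.00561, FDR 0.106). The overlapping female bin had a change of 0.28 (SE 0.41, exact p = 0.486), and the female bin with the smallest p of Plin4, in exon 5, had 0.48 (SE 0.45, exact p = 0.286). Plin5 had 1 bin at its own start site in males, with a change of -0.18 (SE 0.62, exact p = 0.774), and 0 bins in the female age table.

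Cidec, which joins droplets at their contact sites so that lipid flows into the larger one, had 9 rows, 8 of them at a promoter. Its smallest p with age was 0.227 in females (change -0.46, SE 0.38) and 0.487 in males (change -0.31, SE 0.45), each in a bin at a start site. Cidea, its close relative on chromosome 18, had 0 rows, so nothing can be said of the mark there beyond the lack of a listed bin.

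Fitm1 and Fitm2 encode proteins of the endoplasmic reticulum that bind triglyceride and help droplets bud, Fitm1 mostly in muscle and Fitm2 in most tissues. Fitm1 had a promoter bin on each side of its start in males, with opposite signs. The upstream bin (chr14:55574935-55575393), which lies in the overlapping gene Gm15932, had an age change of -0.87 (SE 0.41, exact p = 0.0326, FDR 0.270). The bin 476 bp downstream of the start had 0.62 (SE 0.38, exact p = 0.104). In females a bin across the start had 0.29 (SE 0.41, exact p = 0.488). Fitm2 had no promoter bin, and its 6 rows were intergenic, 7.63 to 9.16 kb upstream. Its age change was -0.73 in males (chr2:163480287-163480787, SE 0.35, exact p = 0.0379, FDR 0.291) and -0.30 in females (SE 0.33, exact p = 0.375).

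Pnpla2, or ATGL, which carries out the first step of triglyceride breakdown, had 8 rows, all of them at a promoter, and a bin over the 300 bases around its start in all 6 tables. Its 4 age rows were all negative, with smallest p values of 0.109 in males (change -0.69, SE 0.43) and 0.292 in females (change -0.43, SE 0.41). Its longer peaks, of 11.2 kb in females and 16.4 kb in males, ran on past the gene, and no Pnpla2 bin had an unadjusted p under 0.05 in any table.

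Pnpla3, a droplet protein of the same family tied to fatty liver in people, had the most rows. Of its 28 rows, 27 lay upstream of the start site, and 21 were intergenic. In males the called bin (chr15:84148830-84149330, 18.5 kb upstream, in no annotated gene) was higher at 8 weeks by 1.16 (SE 0.30, 95% interval 0.56 to 1.75, exact p = 0.000135, FDR 0.0107). With an average of 8.50 CPM, that corresponds to about 5.26 CPM at 3 weeks and 11.7 CPM at 8 weeks if both groups weigh alike. In the MO comparison of males at 8 weeks, the same control males work out at 16.1 CPM at this bin. The CPM scale thus differs between comparisons, and these levels hold within 1 comparison only. All 5 Pnpla3 bins in control males were positive, at 0.50, 1.16, 0.23, 0.66 and 0.72 from the farthest to the nearest, and the nearest (1.46 kb upstream, exact p = 0.0510) was not called. In control females the 4 bins had changes of 0.33, 0.57, -1.31 and -0.19 in the same order. The bin at -1.31 (chr15:84161529-84162029, 5.81 kb upstream, SE 0.43, exact p = 0.00224, FDR 0.0747) came nearest to the threshold among bins that missed it, and no bin of the male tables lay there.

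Several properties of the called Pnpla3 bin were shared with many other bins. It is 100% soft-masked repeat, as were 2.43% of all bins in that table, and of those 11.0% were called, against 4.24% of the other bins. Its signal was above that of 98.5% of bins, and in the top decile of signal 14.6% of bins were called and 84.3% were positive. When the median change of bins with like GC content and signal was subtracted, its change was 0.61 and its FDR 0.304, so the call was lost. It also came from a peak longer than 1 bin, of which 1 bin is listed by a rule that is not stated, and 24.1% of such bins had a p under 0.05 in that table, against 17.4% of single-bin peaks.

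**Figure D2:**
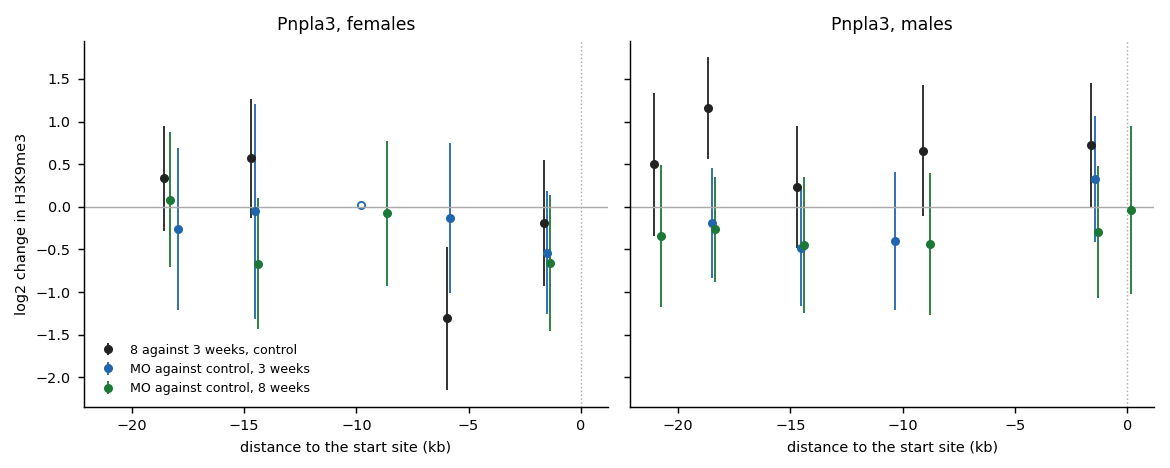
Pnpla3 bins in females and males against distance from the start site, with approximate 95% intervals. Colours separate the age change in controls from the MO changes at 3 and 8 weeks, points are shifted sideways by up to 0.15 kb for legibility, and the open circle has a p of 1 and no interval. All 5 age changes in males are positive, and the 6 MO changes at 8 weeks in males are negative.

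A call in 1 sex does not show a difference between the sexes, so the change in males minus that in females was tested over bins that overlapped by at least 50% of each. Of 9 member pairs, 0 had an FDR under 0.05 in this normal test on the approximate SEs, beside 0% of the 49159 pairs tested, and 0 had an unadjusted p under 0.05, beside 6.67%. At the called Pnpla3 bin the difference was 0.83 (95% interval -0.03 to 1.68, FDR 0.777). At the Pnpla3 bin nearest to the start it was 0.91 (95% interval -0.13 to 1.95, FDR 0.829). At the Cd36 bin in intron 8 that lies 28.5 kb from its assigned start site it was 0.92 (95% interval -0.12 to 1.97, FDR 0.825). The other pairs lay between -0.46 and 0.75. The upper bounds ran as high as 1.97, so these intervals are wide.

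**Figure D3:**
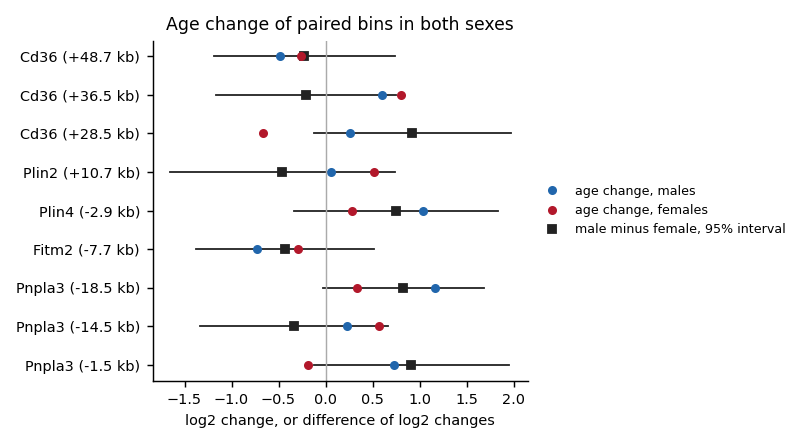
Age change of the 9 member bins that overlap between the sexes. Circles are the log2 changes of each sex, squares are male minus female with an approximate 95% interval, and labels give the gene and the distance of the male bin from its start site. Every interval spans 0.

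The second question was whether maternal obesity moved the mark at these genes. Changes are MO against control, and a call is an unadjusted p under 0.001, since no bin of any MO table had an FDR under 0.05. No member bin was called. At 3 weeks, 0 of 18 member bins in females and 0 of 21 in males passed, beside 0.211% and 0.278% of all bins, and 1 and 0 had a p under 0.05, beside 7.72% and 8.83%. At 8 weeks, 0 of 15 in females and 0 of 17 in males passed, beside 0.162% and 0.114%, and 0 and 1 had a p under 0.05, beside 7% and 6.5%. The median SE of the member bins was 0.38 to 0.42 in these 4 tables.

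Both bins with a p under 0.05 lay in introns of Cd36. In females at 3 weeks, a bin in intron 13 (chr5:17786023-17786523) had a change of -0.93 (SE 0.38, exact p = 0.0158, FDR 0.855). A neighbouring bin of the same peak, listed in females at 8 weeks, had 0.29 (SE 0.36, exact p = 0.409). In males at 8 weeks, a bin in intron 11 (chr5:17789188-17789486), which is 100% repeat, had a change of 1.02 (SE 0.41, exact p = 0.0140, FDR 1). The same bin had 0.31 (SE 0.33, exact p = 0.351) with MO at 3 weeks and -0.63 (SE 0.40, exact p = 0.116) with age. The age value shares the control males of 3 weeks with the 3-week MO value, and those of 8 weeks with the 8-week MO value. The male bin was thus higher in both MO comparisons and lower with age, and the female bin itself is listed in females at 3 weeks with MO only.

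More member bins were lower than higher with MO in each of the 4 comparisons, most of all in males at 8 weeks and females at 3 weeks. In males at 8 weeks 16 of 17 were lower, with a median of -0.29 (all bins: median 0.00, of which 50.4% were positive), and the Cd36 intron 11 bin was the exception. In females at 3 weeks 14 of 18 were lower, with a median of -0.23 (all bins: median -0.01, of which 49.2% were positive). In males at 3 weeks 13 of 21 were lower, with a median of -0.11 (all bins: median 0.03, of which 52.1% were positive). In females at 8 weeks 9 of 15 were lower, also with a median of -0.11 (all bins: median 0.01, of which 50.9% were positive). Several bins belong to 1 gene, so these counts are not independent, and no test was made over the list. The median in males at 8 weeks lay between -0.30 and -0.26 under every alternative run, and that in females at 3 weeks between -0.24 and -0.17. Without the intergenic bins, the medians in males at 3 weeks and females at 8 weeks turned positive, at 0.15 and 0.01.

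**Figure D4:**
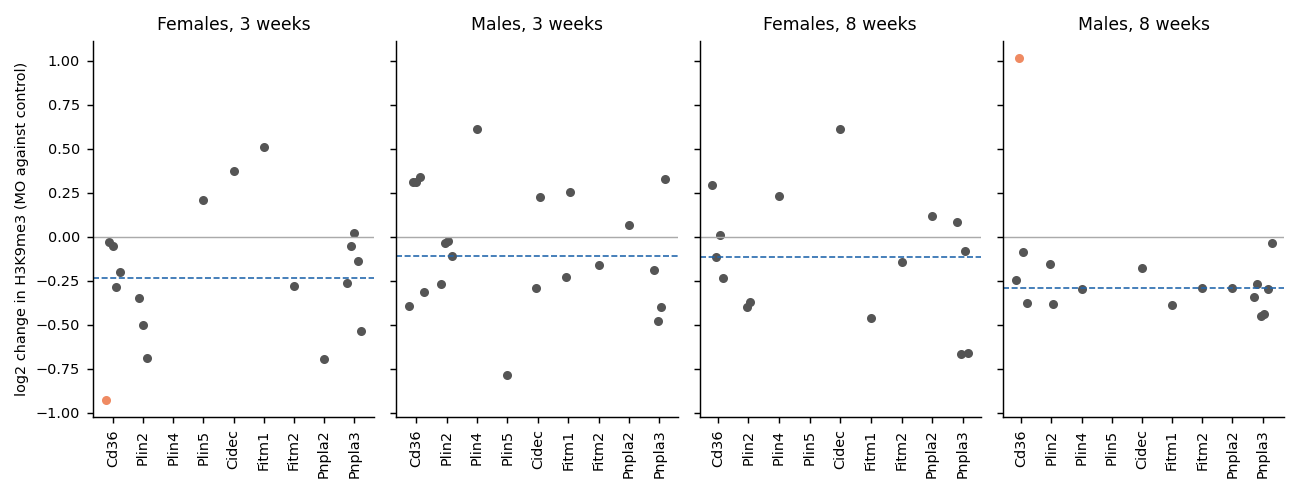
Change of each member bin with maternal obesity by gene, in the 4 comparisons of MO against control. Points are log2 changes, orange points have an unadjusted p under 0.05, and the dashed line is the median of the member bins. In males at 8 weeks 16 of the 17 points lie below 0.

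By gene, Plin2 was lower in all 11 of its MO rows, with changes of -0.69 to -0.02. The 4 comparisons share no libraries with each other, but several rows are bins of 1 gene and litters were not known. The smallest changes, -0.03 and -0.02 in males at 3 weeks, have no SE. None of the 11 passed, and the smallest exact p was 0.0957, in the bin 24.3 kb upstream in females at 3 weeks. That change and the age change of -1.10 at this bin share the control females of 3 weeks. The Plin2 bin past the 3′ end had MO changes of -0.35 and -0.27 at 3 weeks and of -0.40 and -0.15 at 8 weeks, females before males. Pnpla3 was lower in 16 of 19 MO rows. At its called age bin, MO changes in males were -0.19 (SE 0.33, exact p = 0.568) at 3 weeks and -0.27 (SE 0.31, exact p = 0.395) at 8 weeks. Each of these MO values shares its control males with the age change, those of 3 or of 8 weeks, so the signs are not separate evidence.

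Fitm2 was also lower in each of its 4 MO rows, by small amounts, from -0.29 to -0.15, with a smallest exact p of 0.428. The other 5 genes with MO rows beside Cd36 had values of either sign. The Plin5 start-site bin in males at 3 weeks had -0.78 (SE 0.40, exact p = 0.0511). Plin4 had 0.61 in males at 3 weeks (SE 0.40, exact p = 0.126), in a bin 124 bp inside the gene. Cidec had 0.61 in females at 8 weeks (SE 0.41, exact p = 0.134) and 0.38 in females at 3 weeks (SE 0.32, exact p = 0.240), in different bins of 1 peak. At Pnpla2 the promoter bin had -0.69 in females at 3 weeks (SE 0.40, exact p = 0.0865), and the MO changes in the other 3 tables were between -0.29 and 0.12. The Fitm1 start-site bin in females had 0.51 (SE 0.38, exact p = 0.174) at 3 weeks and -0.46 (SE 0.40, exact p = 0.244) at 8 weeks.

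Whether the MO change differed between the ages in each sex, or between the sexes at each age, was tested in the same way. Between 3 and 8 weeks in females, 0 of 6 tested member pairs had an FDR under 0.05, beside 0% of 65716, and 0 had a p under 0.05, beside 5.97%. The largest gap was at the Fitm1 start-site bin, at -0.97 for 8 minus 3 weeks (95% interval -2.04 to 0.10, FDR 0.879). In males, 0 of 10 pairs passed, beside 0% of 59825, and 0 had a p under 0.05, beside 6.35%. Between males and females at 3 weeks, 0 of 7 passed, beside 0% of 49176, and 0 had a p under 0.05, beside 6.93%. The widest gap there was at the Pnpla3 bin near its start, where male minus female was 0.87 (95% interval -0.17 to 1.90, FDR 0.808). At 8 weeks, in a comparison of the sexes added after seeing the data, 0 of the 7 tested pairs passed, beside 0% of 42947, and 0 had a p under 0.05, beside 6.19%. Male minus female there lay between -0.38 and 0.36 over 8 pairs, 1 of which has no SE and was not tested.

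Other genes of the pathway were counted over a list of 53, covering the remaining perilipin and CIDE genes, droplet formation, droplet enzymes, lipolysis, uptake and regulators. With age in females, 49 had a bin, and of 250 bins 1 was called higher and 7 lower at 8 weeks, or 3.20%, close to the 2.72% of the whole table, where 1802 were higher and 1483 lower. No test was made over this list, and the called genes are named by rule and not as a pathway result. Acsl4, an acyl-CoA synthetase on the X chromosome, rose by 1.28 at its promoter (FDR 0.00109). Those that fell were Plin3, a perilipin found on young droplets (-1.74, FDR 0.00835), the droplet-bound hydrolase gene Ldah (-1.78 and -1.20), Hsd17b11 (-1.88), Pnpla5 (-1.32), Acsl1 (-1.31) and the endothelial lipase gene Lipg (-1.97). Of these, the bins of Hsd17b11 and Lipg are intergenic, 11.5 and 39.1 kb from the start site. That of Pnpla5 lies 12.3 kb from its start site. With age in males, 48 had a bin, and of 320 bins 2 were higher and 11 lower, or 4.06%, beside 4.41% of the whole table, where 3583 were higher and 2944 lower. The promoter of Dgat1, which makes triglyceride, fell by 2.75 (SE 0.60, FDR 0.00103). Its bin had a low signal, 2.87 CPM on average beside a median of 4.29 CPM for all bins. The promoter of Hilpda, an inhibitor of ATGL, fell by 1.59 (FDR 0.0114). Mgll, which cleaves monoglycerides, fell in introns at 2 bins (-2.10 and -1.40), and Pnpla7 (-1.58) and Slc27a4 (-1.62) fell at promoters. Ldah had 2 bins that fell (-2.11 and -1.57) and 1 that rose (1.39), which lies 84.0 kb from its start site. Slc27a6 rose by 1.34 in an intergenic bin 54.1 kb away that is 100% repeat. The 3 bins given to Got2 that fell lie 778 to 1459 kb from it, so the gene is theirs by distance alone. The Ldah bin about 2.7 kb upstream in females overlaps that at 2.64 kb in males, and was called in both.

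With MO, 1 of 285 pathway bins in females at 3 weeks passed p under 0.001 (Pnpla7, 1.27, exact p = 0.000700), or 0.351% beside 0.211% of all bins. In males at 3 weeks 2 of 333 passed, at the promoters of Hilpda (-1.31, exact p = 0.000352) and Pnpla5 (-1.46, exact p = 0.000353), or 0.601% beside 0.278%. The Hilpda bin is the one that fell with age in males, and both values share the control males of 3 weeks. In females at 8 weeks 1 of 218 passed, at the promoter of Ppara, the nuclear receptor that drives fat burning in liver (-1.43, exact p = 0.000513), or 0.459% beside 0.162%, and in males at 8 weeks 0 of 199, beside 0.114%. These shares rest on 0 to 2 called bins in a table, and no test was made over the list. None of these had an FDR under 0.05, with values from 0.519 to 0.807.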

How the data were processed

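Liver H3K9me3 ChIP-seq was read from the authors' 6 deposited comparison tables, which were used because the genes are defined on their rows. According to the methods of the study, reads were aligned by the authors to mm10/GRCm38 (Burrows-Wheeler Aligner). The authors called broad peaks with MACS2, merged consensus peaks for each sex, counted reads in bins of 500 bp with featureCounts, ran edgeR's exact test and assigned genes with ChIPseeker. The deposited log2 columns are the fold change and the mean CPM. The deposited p-value and FDR are probabilities per bin. Depth is given by the methods as approximate and common to all libraries, and the depth of each was not analysed here. Each peak has 1 bin per table, chosen by a rule that is not given in the sources used here.

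The age tables, 3 against 8 weeks as deposited, were turned to 8 against 3. SE was taken as the size of the change over the normal quantile of its p, intervals as 1.96 SE, and bins with a p of 1 have no SE. Differences between comparisons without shared libraries were tested with a two-sided normal test over all pairs of bins, with Benjamini-Hochberg adjustment. GC content and soft-masked share came from GRCm38, promoter sequences from RefSeq (GRCm38.p6), and overlapping genes from GENCODE. The functions were tested on simulated data. Every member was named with its smallest-p bin per age table and with every MO bin under p 0.05, and other pathway genes where called; further MO bins named were picked after their values were seen. The members and lists were chosen with earlier results of these data known. Alternatives were stricter and looser thresholds, adjustment over the deposited bins, high-signal bins, bins without the intergenic ones, bins within 50 kb, single-bin peaks, and subtraction of the GC and signal trend or of the median. Input libraries and RNA-seq were not used here. Python 3.11.15, numpy 2.4.6, pandas 2.3.3 and scipy 1.17.1 were used.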

Additional observations from a re-analysis of the deposited data

How the results depend on the processing

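Of 105 alternatives run, 100 left the count of called member bins within 1.5 times, or the median within the typical standard error, and 5 did not. The median SE of a member bin was 0.38 to 0.42 over the 6 tables, larger than any main median. A median could thus change sign and still count as unmoved, so the 100 do not measure how stable the medians are. In control males the count of 1 fell to 0 with FDR under 0.01, without the intergenic bins, with single-bin peaks alone, and with the GC and signal trend subtracted. The first 3 follow from the construction of the alternative, since the called Pnpla3 bin has an FDR of 0.0107, is intergenic and belongs to a longer peak. After the trend was subtracted the cause of its lower change was not tested. In control females the count of 0 became 1 with FDR under 0.10, by the Pnpla3 bin at FDR 0.0747. The MO counts were 0 under every alternative run, as were the 5 differences between comparisons, of which the MO difference between the sexes at 8 weeks was added after seeing the data. For the MO counts, stricter thresholds and subsets of the bins could only give 0, since none was called to begin with. Only the looser threshold and the subtractions could have added an MO call. An alternative that kept pairs with identical coordinates held no member pair between the sexes, so it tested nothing there. The median of the member bins changed sign within its range in both age tables (-0.28 to 0.04 in females, -0.18 to 0.38 in males), in males at 3 weeks with MO (-0.16 to 0.15) and in females at 8 weeks with MO (-0.37 to 0.01). No paired analysis was possible because the tables give comparisons and no values per library, and for the same reason no library could be left out.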
